A study of Sus scrofa with 30 samples.

Results

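A set of 10 genes of the TGF beta pathway was followed in whole pig embryos of Days 8, 10 and 12 of pregnancy: the 3 ligands TGFB1, TGFB2 and TGFB3, the induced matrix protein TGFBI, the receptors TGFBR1, TGFBR2 and TGFBR3, and the intracellular transducers SMAD2, SMAD3 and SMAD4. They were picked by symbol from the pathway, with earlier results of these data known, among them the wide spread of TGFB3 on Day 10, and were found through their NCBI gene identifiers among the 13103 genes in the count table of all embryos. All 10 were in that table. The separate tables of single days held 7 of them on Day 8 and on Day 10, where TGFB2, TGFBI and TGFBR2 were absent, and 9 on Day 12, where TGFBI was absent.

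The study asked how transcription in the embryo changes from the blastocyst of Day 8 to the elongating conceptus, and how female and male embryos differ. Each of 30 libraries was made from the mRNA of 1 embryo, with 5 female and 5 male embryos on each day. All embryos were untreated and came from synchronized German Landrace × Pietrain gilts inseminated with sperm of 1 Pietrain boar, and they were flushed from the uterus with PBS. Sex had been typed on the DNA of the same embryo by a qPCR for SRY. At each stage at least 1 female and 1 male embryo came from the same sow, but which embryos shared a sow is not in the labels, so littermates entered every test as if independent, and the spread between embryos holds the spread between litters too.

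TGF beta ligands are secreted as latent dimers, are freed from their propeptide outside the cell, and bind the type II receptor TGFBR2, which then activates the type I receptor TGFBR1. The activated receptor phosphorylates SMAD2 and SMAD3, which enter the nucleus with SMAD4 and regulate target genes together with other factors. NODAL and activins use related receptors and the same SMAD2, SMAD3 and SMAD4. In the pig, TGF beta ligands and receptors have long been known at the interface of the elongating conceptus and the uterine lining, where they are linked to attachment. A change in mRNA in a whole embryo cannot separate more or fewer cells of a type from more or less RNA per cell.

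Levels are read counts scaled to library size (CPM) after scaling by TMM, edgeR's trimmed mean factor, and are given per day, as mean ± SD (n = 10) or as the lowest, median and highest embryo. The total count of a library ran from 6068212 to 34002508 with a median of 22202723.5, so 3 counts, taken as the floor, stood for 0.0823 to 0.434 CPM. Day 10 was the most uneven day: d10_f_454 (female) and d10_m_453 (male) stood apart from the other 8 embryos on the first principal component of all genes, with scores of 2.003 and 7.35 against -42.0 to -19.1. Results that rest on them are given with and without them. Markers of the parts of a whole embryo were present. Those of trophectoderm (CDX2, GATA3, GATA2, KRT8, KRT18, TFAP2C) summed to a median of 23664, 42265 and 13108 CPM on Days 8, 10 and 12, those of the embryonic disc (POU5F1, NANOG, SOX2, LIN28A) to 158, 128 and 43.8 CPM, and those of the hypoblast (GATA4, GATA6, SOX17, PDGFRA) to 279, 160 and 384 CPM. KRT8 and KRT18 made up most of the first sum. The mean of GATA3 was 138, 121.3 and 285 CPM on Days 8, 10 and 12. That of GATA2 was 460, 327 and 425 CPM, and that of TFAP2C 110, 90.9 and 91.01 CPM. GATA3 and GATA2 thus went against the sum in both intervals, and TFAP2C from Day 8 to Day 10. CDX2 went with the sum, at 170, 214 and 79.9 CPM. PDGFRA made up most of the hypoblast rise, from 58.1 to 332 CPM, while GATA6 went from 55.5 to 44.5 CPM. The 2 mesoderm markers in the table (T and EOMES) summed to 2.16, 4.15 and 0.0718 CPM. Of the 6 markers of maternal blood cells, HBB was the only one in the table, with a median of 0 CPM on Days 8 and 10 and 0.945 CPM on Day 12. The 2 endometrial markers in the table (PIGR and MUC1) summed to a median of 0.217, 1.53 and 5.94 CPM, while PAEP and OXTR were not in it. From Day 10 to Day 12 these 2 parted: the mean of PIGR fell from 1.73 to 0.455 CPM, and that of MUC1 rose from 2.26 to 6.01 CPM.

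A differentially expressed gene (DEG) between days was called by the edgeR quasi-likelihood test at a false discovery rate (FDR) below 0.001 with a log2 fold change (log2FC) larger than 1 in either direction, with Benjamini-Hochberg adjustment over all 13103 genes. From Day 8 to Day 10, 1 of the 10 genes was a DEG, TGFB3, and it was higher. Of all genes, 9.88% were DEG with higher and 4.20% with lower levels on Day 10. From Day 10 to Day 12, TGFB1, TGFB2 and TGFBI were DEG with higher levels, against 14.9% of all genes, and TGFB3 was a DEG with a lower level, against 8.39%. From Day 8 to Day 12, TGFB1 and TGFB2 were DEG with higher levels, and none of the 10 was a DEG with a lower one, against 22.0% and 10.4% of all genes. The other 6 genes, which are the 3 receptors and the 3 SMADs, were never DEG. The median log2 fold change of the 10 genes was 0.20, 0.68 and 1.09 over the 3 comparisons, beside 0.0286, 0.0431 and 0.0864 for all genes. Without TMM, by library size alone, the median of all genes moved to -0.150, 0.238 and 0.102.

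**Figure D1:**
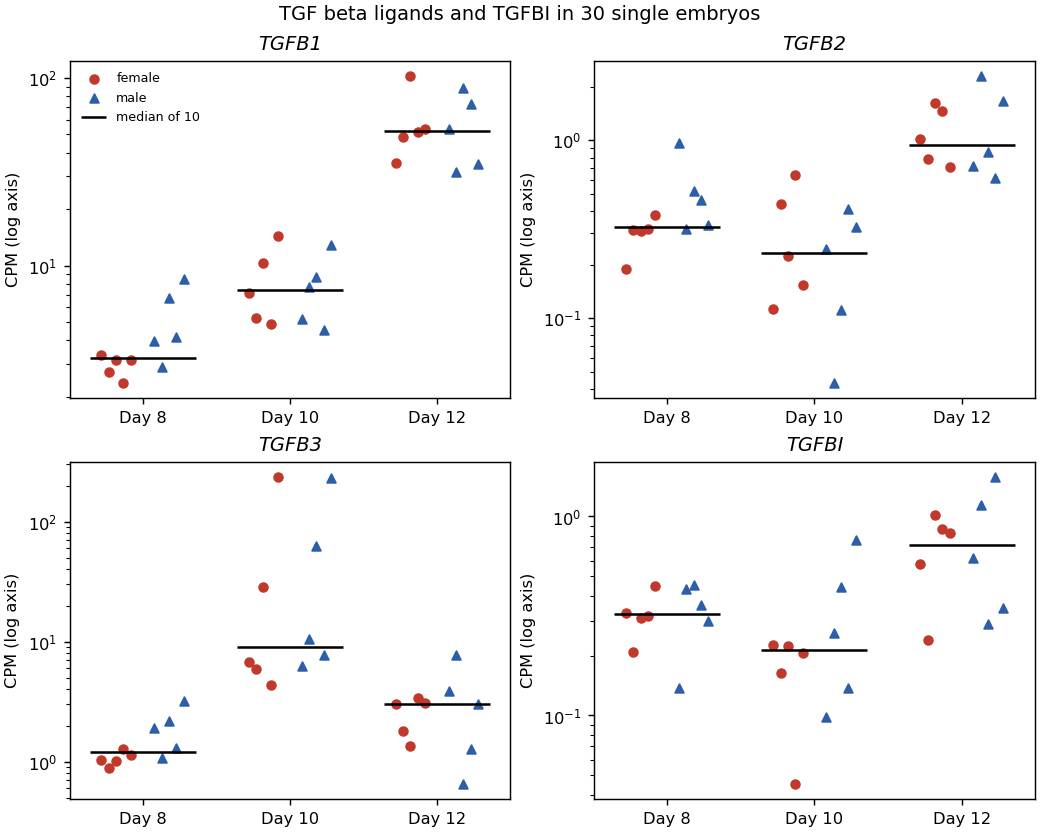
Levels of the 3 ligands and of TGFBI in each of 30 embryos by day, in CPM on a log axis, with circles for female and triangles for male embryos and a bar at the median of the 10 embryos of a day. TGFB1 was higher in every embryo of Day 12 than in any of Day 10, and TGFB3 on Day 10 ran from 4.32 to 234 CPM.

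TGFB1 is the founding ligand of the family. The gene (NCBI 397078) lies on chromosome 6, positions 49332169 to 49348642 of Sscrofa11.1. From the lowest over the median to the highest embryo it had 2.38, 3.23 and 8.47 CPM on Day 8, 4.52, 7.38 and 14.5 CPM on Day 10, and 31.6, 52.4 and 102 CPM on Day 12. On Day 12 all 10 embryos were above the highest embryo of Day 10, while on Day 10 4 of 10 were above the highest embryo of Day 8. The mean rose from 8.09 ± 3.49 CPM on Day 10 to 57.1 ± 23.5 CPM on Day 12 (log2FC 2.82, SE 0.266, adjusted p = 1.22e-10). From Day 8 (4.08 ± 1.97 CPM) to Day 10 the log2 fold change was 0.99 (SE 0.260, adjusted p = 0.00188), which missed both thresholds. By edgeR's robust GLM, the fit of the study, it was 1.06 (adjusted p = 6.18e-06), which passed both. That difference passed as a DEG when d08_m_121 (1.09, adjusted p = 0.000975) or d08_m_136 (1.18, adjusted p = 0.000249), the Day 8 embryos with the highest TGFB1, was left out, and it was 0.72 (adjusted p = 0.0204) without d10_f_454 and d10_m_453. Over the whole span the log2 fold change was 3.80 (SE 0.280, adjusted p = 2.77e-13), a 14.0-fold rise. The gene shares 373 bp with the annotated gene LOC110261354, which had 0.428, 0.952 and 4.60 CPM on the 3 days. Whether the authors counted reads by strand is not stated, so reads in the shared stretch cannot be assigned to one of them.

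TGFB2, the ligand whose binding leans on the co-receptor TGFBR3 in many cells, was close to the detection limit. It lies on chromosome 10, positions 8306136 to 8435307 (NCBI 397084). Levels in the lowest, median and highest embryo were 0.188, 0.326 and 0.960 CPM on Day 8, 0.0434, 0.234 and 0.636 CPM on Day 10, and 0.611, 0.937 and 2.29 CPM on Day 12. On Day 10 the raw counts were 1 to 14 and 4 of 10 embryos were at the floor. On Day 12 the counts were 7 to 56, and 9 of 10 embryos were above the highest embryo of Day 10. TGFB2 rose from Day 10 to Day 12 (log2FC 2.10, SE 0.355, adjusted p = 6.86e-06) and from Day 8 to Day 12 (1.49, SE 0.342, adjusted p = 0.000263). From Day 8 to Day 10 the log2 fold change was -0.61, with a 95% interval of -1.35 to 0.128.

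TGFB3 had the widest spread of the 10 genes on Day 10. It is the ligand best known for palate closure and lies on chromosome 7, positions 99133873 to 99162239 (NCBI 397400). On Day 8 its lowest, median and highest embryo had 0.882, 1.21 and 3.23 CPM, and on Day 12 0.656, 3.03 and 7.76 CPM. On Day 10 the 5 female embryos had 6.73 (d10_f_315), 5.95 (d10_f_317), 28.4 (d10_f_336), 4.32 (d10_f_433) and 234 CPM (d10_f_454). The 5 male embryos had 6.27 (d10_m_318), 10.5 (d10_m_321), 62.9 (d10_m_333), 7.71 (d10_m_435) and 229 CPM (d10_m_453). All 10 embryos of Day 10 were above the highest embryo of Day 8, and 9 of 10 embryos of Day 12 were below the lowest of Day 10. Both sexes held low, middle and high embryos on Day 10.

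The mean of TGFB3 went from 1.503 ± 0.737 to 59.6 ± 92.3 and back to 2.93 ± 2.01 CPM. The log2 fold change was 5.30 from Day 8 to Day 10 (SE 0.742, adjusted p = 5.49e-07) and -4.34 from Day 10 to Day 12 (SE 0.703, adjusted p = 3.47e-06). The size of the peak rested on a pair of embryos. By medians, Day 10 was 7.55 times Day 8, against 39.6 times by means. Without d10_f_454 and d10_m_453 the log2 fold changes were 3.46 (adjusted p = 1.24e-06) and -2.51 (adjusted p = 4.02e-05), so both calls held. With the robust GLM, another edgeR fit, they were 3.43 and -2.57, both still DEG. Between Day 8 and Day 12, TGFB3 was not a DEG (log2FC 0.95, SE 0.685, adjusted p = 0.21).

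TGFB3 shares 6351 bp with IFT43, a gene of transport along cilia at positions 99155889 to 99254436 of the same chromosome. IFT43 had 5.67 ± 1.07, 17.0 ± 8.33 and 5.01 ± 1.46 CPM on the 3 days, with log2 fold changes of 1.59 (SE 0.214, adjusted p = 2.76e-07) and -1.78 (SE 0.216, adjusted p = 2.2e-08). Over the 10 embryos of Day 10 its log2 CPM moved with that of TGFB3 with a Pearson r of 0.983 and a Spearman rho of 0.952. Its level in d10_f_454 and d10_m_453 was 31.6 and 28.5 CPM, against 9.99 to 25.8 CPM in the other embryos of Day 10. Reads in the overlap cannot be assigned to one of the 2 genes without strand, and the part of the overlap in either value was not tested.

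TGFBI, a secreted matrix protein named for its induction by TGF beta, was also near the detection limit. It lies on chromosome 2, positions 138191793 to 138225373 (NCBI 100519300). Its lowest, median and highest embryo had 0.137, 0.323 and 0.453 CPM on Day 8, 0.0454, 0.214 and 0.759 CPM on Day 10, and 0.240, 0.721 and 1.57 CPM on Day 12. Days 10 and 12 overlapped, with 5 of 10 embryos of Day 12 above the highest of Day 10. It passed as a DEG from Day 10 to Day 12 (log2FC 1.51, SE 0.371, adjusted p = 0.000786), but that call was lost in 13 of 30 fits with 1 embryo left out. Those were the fits without d10_f_315, d10_f_317, d10_f_336, d10_f_433, d10_f_454, d10_m_318, d10_m_321, d10_m_435, d12_f_289, d12_f_297, d12_f_299, d12_m_275 or d12_m_286, with log2 fold changes of 1.31 to 1.51 and adjusted p from 0.00132 to 0.00296.

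**Figure D2:**
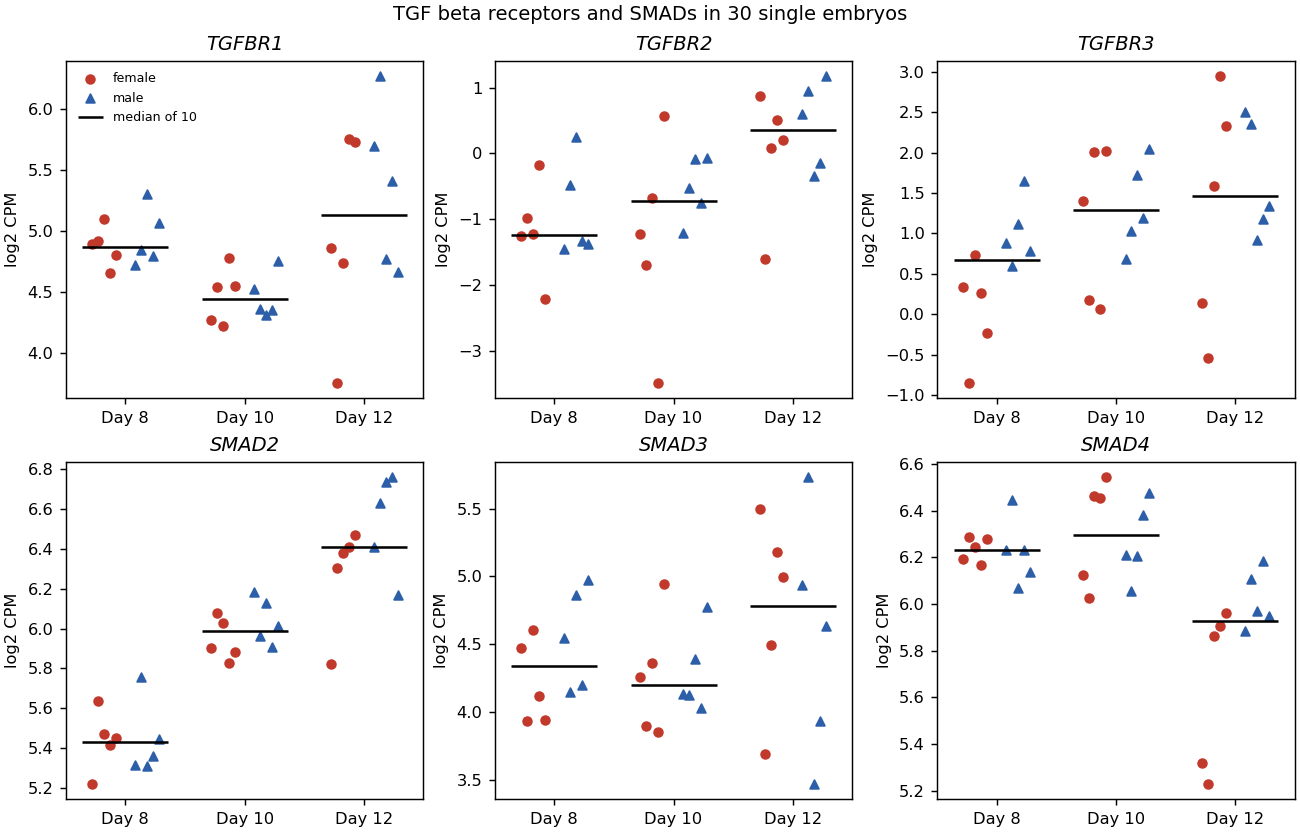
Levels of the 3 receptors and the 3 SMADs in each of 30 embryos by day, on a log2 CPM scale with a prior count of 2, with circles for female and triangles for male embryos and a bar at the median of the 10 embryos of a day. SMAD2 on Day 10 lay above Day 8 in all 10 embryos, and TGFBR1 and TGFBR3 spread more widely on Day 12 than on Day 10 (SD of log2 CPM 0.736 against 0.195 and 1.10 against 0.744).

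TGFBR1, the type I receptor kinase, was present on every day. It lies on chromosome 1, positions 240842735 to 240918267 (NCBI 396665). In the lowest, median and highest embryo it had 25.04, 29.1 and 39.4 CPM on Day 8, 18.6, 21.6 and 27.4 CPM on Day 10, and 13.4, 35.6 and 76.8 CPM on Day 12. In 8 of 10 embryos of Day 10 it was below the lowest embryo of Day 8. The log2 fold change was -0.44 from Day 8 to Day 10 (SE 0.190, adjusted p = 0.0471) and 0.85 from Day 10 to Day 12 (SE 0.191, adjusted p = 0.000315), both within a log2 fold change of 1. By library size alone the second value was 1.06 (adjusted p = 3.3e-05) and TGFBR1 passed as a DEG. The highest embryo exceeded the lowest by 1.47 times on Day 10 and 5.71 times on Day 12.

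TGFBR2, the type II receptor that binds the ligand first, stayed near the floor. It lies on chromosome 13, positions 16784370 to 16875828 (NCBI 100038019). From the lowest over the median to the highest embryo it had 0.127, 0.334 and 1.10 CPM on Day 8, 0, 0.518 and 1.39 CPM on Day 10, and 0.240, 1.19 and 2.17 CPM on Day 12. The days overlapped. It had 0 counts in d10_f_433, which allows up to 0.136 CPM, and no more than 56 counts in any library. The log2 fold change from Day 8 to Day 12 was 1.42 (SE 0.425, adjusted p = 0.00372), and with d10_f_433 left out of the fit the same difference passed as a DEG (adjusted p = 0.000898).

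TGFBR3, also called betaglycan, is a co-receptor without kinase activity that presents ligands, TGFB2 above all, to TGFBR2. It lies on chromosome 4, positions 125109939 to 125310788 (NCBI 397512). Levels in the lowest, median and highest embryo were 0.467, 1.498 and 3.04 CPM on Day 8, 0.954, 2.37 and 4.05 CPM on Day 10, and 0.6001, 2.67 and 7.60 CPM on Day 12. The days overlapped, and the lowest embryo of Day 12 was below the lowest of Day 10. The log2 fold change was 0.75 from Day 8 to Day 10 (adjusted p = 0.0793), 0.44 from Day 10 to Day 12 (adjusted p = 0.301) and 1.19 from Day 8 to Day 12 (SE 0.366, adjusted p = 0.00452).

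SMAD2 is one of the transducers that the activated receptor phosphorylates. It lies on chromosome 1, positions 97415360 to 97511388 (NCBI 100155304). Its lowest, median and highest embryo had 37.2, 43.1 and 54.0 CPM on Day 8, 56.7, 63.4 and 72.6 CPM on Day 10, and 56.6, 84.9 and 108 CPM on Day 12. No embryo of Day 10 or Day 12 was as low as the highest of Day 8. Each step was small and narrow in spread, with a log2 fold change of 0.55 (SE 0.0896, adjusted p = 6.07e-06) and then of 0.44 (SE 0.0893, adjusted p = 9.47e-05). Together they came to 0.99 (SE 0.0901, adjusted p = 3.58e-11), just inside the fold threshold. SMAD2 passed it when d08_f_109, d08_m_111, d12_f_245, d12_f_271 or d12_m_307 was left out, with values of 1.001 to 1.04.

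SMAD3, the other receptor-regulated transducer, lies on chromosome 1, positions 164998457 to 165124455 (NCBI 397260). In the lowest, median and highest embryo it had 15.2, 20.2 and 31.4 CPM on Day 8, 14.3, 18.3 and 30.7 CPM on Day 10, and 10.99, 27.6 and 53.0 CPM on Day 12. All days overlapped. Day 12 held both the lowest and the highest embryo of the series, and the difference from Day 10 had a log2 fold change of 0.51 (SE 0.224, adjusted p = 0.0509).

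SMAD4, the common partner of SMAD2 and SMAD3 and of the BMP transducers, lies on chromosome 1, positions 100521843 to 100633501 (NCBI 397142). From the lowest over the median to the highest embryo it had 67.1, 75.1 and 87.3 CPM on Day 8, 65.2, 78.6 and 93.2 CPM on Day 10, and 37.4, 60.8 and 72.7 CPM on Day 12. In 8 of 10 embryos of Day 12 it was below the lowest of Day 10. Its log2 fold change was 0.07 from Day 8 to Day 10 (adjusted p = 0.537) and -0.44 from Day 10 to Day 12 (SE 0.0970, adjusted p = 0.000261), within a log2 fold change of 1. SMAD3 shares 1450 bp with AAGAB and SMAD4 14737 bp with ELAC1, and shared reads cannot be assigned there either.

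**Figure D3:**
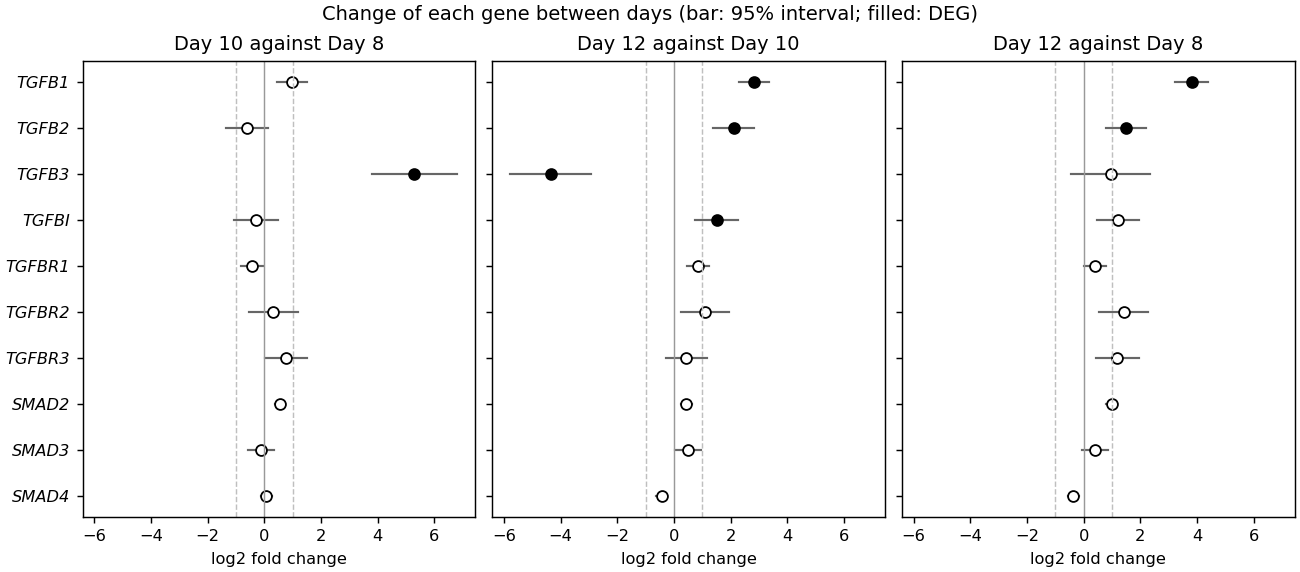
Log2 fold change of each of the 10 genes between days, with bars for 95% intervals, filled points for DEG and dashed lines at -1 and 1. TGFB3 had the largest change of the 10 in both intervals, 5.30 and then -4.34, and the intervals of SMAD2 and SMAD4 were narrow.

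The spread of TGFB3 among the Day 10 embryos was one reason to describe these genes, so its place among all genes is a description with no test. The SD of its log2 CPM was 2.20, which was wider than in 99.6% of the 13103 genes on that day, against 86.4% on Day 8 (SD 0.563) and 88.7% on Day 12 (SD 0.962). TGFBR2 stood at 96.2% on Day 10, TGFB2 at 89.7%, TGFBI at 89.4%, TGFBR3 at 89.3% and TGFB1 at 82.8%. Counts on Day 10 were 0 to 27 for TGFBR2, 1 to 14 for TGFB2 and 1 to 21 for TGFBI, so their spread holds counting error. TGFB3 had 95 to 6343 counts. SMAD3, SMAD4, TGFBR1 and SMAD2 stood at 62.3%, 26.5%, 27.8% and 6.30%. The embryos with the most TGFB3 came in pairs of close label numbers: d10_f_454 and d10_m_453 were the highest at 234 and 229 CPM, and d10_m_333 and d10_f_336 came next at 62.9 and 28.4 CPM. Of the others, d10_f_433 and d10_m_435 had 4.32 and 7.71 CPM, and d10_m_321 had 10.5 CPM. Whether level went with number was not tested. What the numbers stand for is not in the labels. HBB, the marker of maternal blood, was above 0 on Day 10 in the same 4 embryos only, at 6.86 CPM in d10_f_336, 1.59 in d10_m_333, 0.566 in d10_f_454 and 0.0361 in d10_m_453, and its part in the spread was not tested.

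**Figure D4:**
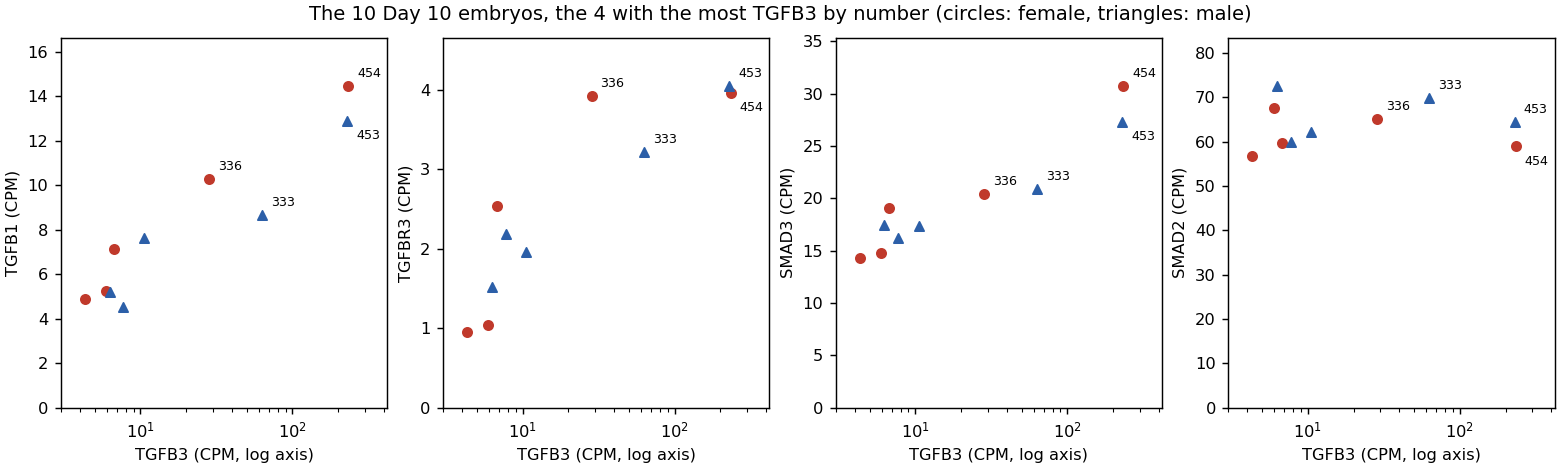
TGFB1, TGFBR3, SMAD3 and SMAD2 (linear axes, CPM) against TGFB3 (log axis, CPM) in the 10 embryos of Day 10, the 4 with the most TGFB3 labelled by embryo number, with circles for female and triangles for male embryos. The first 3 were highest in the 2 embryos with the most TGFB3, and SMAD2 had a Pearson r of 0.0491 with it.

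Within Day 10, TGFB3 was related to the other 9 genes, to the total count and to the scores on the first and second principal components. This makes 12 relations with p-values from two-sided permutation tests of log2 CPM (100000 resamples, Benjamini-Hochberg adjusted). TGFB3 was followed here with its spread on this day known. The permutations take the embryos as exchangeable, though littermates among them are not known, so the p-values hold only if the embryos are independent. TGFB1 (Pearson r 0.918, Spearman rho 0.855, permutation p = 0.00021, adjusted 0.00063) and SMAD3 (r 0.945, rho 0.903, permutation p = 0.00011, adjusted 0.0006) had the highest Pearson r of the 9 genes. By Spearman rho TGFBR2 and TGFBR3 came first. TGFBR3 had r 0.825 and rho 0.927 (permutation p = 0.0045, adjusted 0.0108), TGFBR2 r 0.772 and rho 0.976 (permutation p = 0.00587, adjusted 0.0117), and TGFBI r 0.738 and rho 0.697 (permutation p = 0.0133, adjusted 0.0228). For the Spearman rho of these 5 genes the adjusted permutation p was 0.0057, 0.00211, 0.00152, 0.00024 and 0.0448 in the same order. SMAD4 (r 0.552, rho 0.539, permutation p = 0.103), TGFBR1 (r 0.150, rho -0.127, permutation p = 0.68), SMAD2 (r 0.0491, rho 0.0182, permutation p = 0.89) and TGFB2 (r -0.256, rho -0.539, permutation p = 0.468) did not pass, with adjusted values of 0.137, 0.742, 0.89 and 0.561.

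Without d10_f_454 and d10_m_453, the embryos farthest from the median of TGFB3, r was 0.793 for TGFB1 (permutation p = 0.0115), 0.815 for SMAD3 (permutation p = 0.00994), 0.791 for TGFBR3 (permutation p = 0.0188), 0.816 for TGFBI (permutation p = 0.00981) and 0.701 for TGFBR2 (permutation p = 0.0629). With these 8 embryos the Pearson r of TGFBR2 no longer passed. Measures outside the pathway moved with TGFB3 as well. The share of all genes with as high an r was not computed. The relations with pathway genes are therefore not shown to be particular to the pathway. The score on the first component had r 0.969 and rho 0.927 and that on the second r 0.916 and rho 0.903 (permutation p = 5e-05 and 0.00015, both adjusted to 0.0006). The total count of the library had r 0.742 and rho 0.782 (permutation p = 0.0157, adjusted 0.0235), and without the 2 farthest embryos these 3 had r 0.938, 0.802 and 0.866 (permutation p = 0.00106, 0.0208 and 0.00686).

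Label numbers form runs, and within the 6 embryos of Day 10 whose number begins with 3, r was 0.792 for TGFB1, 0.772 for SMAD3, 0.770 for TGFBR3, 0.861 for TGFBR2 and 0.799 for TGFBI. In these 6 embryos none of the 12 relations passed at an adjusted p under 0.05, and the lowest adjusted permutation p was 0.0513. The other 4 embryos were too few for a value of their own. Endometrial markers were also uneven on Day 10: PIGR and MUC1 summed to 10.8 CPM in d10_m_453, 8.75 in d10_f_454, 8.66 in d10_m_333 and 6.48 in d10_m_435, against 0.434 to 1.68 CPM in the other 6 embryos. Their part in the levels of TGFB3 was not tested. Trophectoderm and disc markers were present in all 10, at sums of at least 32648 and 106 CPM. The trophectoderm sum was lowest in d10_m_453 and d10_f_454, at 32648 and 36514 CPM, against 37612 to 50035 CPM in the other embryos. The disc sums of d10_m_453 and d10_f_454, at 126 and 153 CPM, lay within the range of the others. The part of either sum in the spread of TGFB3 was not tested.

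The same relations were then computed on the other days, with adjustment over 18. On Day 8 TGFB3 rose with TGFB1 (r 0.899, rho 0.709, permutation p = 0.00123, adjusted 0.0111) and SMAD3 (r 0.781, rho 0.588, permutation p = 0.00697, adjusted 0.0314). Both rested on d08_m_121 and d08_m_136, without which r was 0.532 and 0.368. On Day 12 it moved against TGFB1 (r -0.810, rho -0.612, permutation p = 0.00445, adjusted 0.0267) and with SMAD3 (r 0.880, rho 0.855, permutation p = 0.00063, adjusted 0.0111). Without d12_m_275 and d12_m_276 these were -0.688 and 0.753. By Spearman rho the lowest adjusted permutation p of these 4 relations was 0.0547, for SMAD3 on Day 12, so by ranks none passed. The difference in sign of TGFB1 between days was not tested.

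The genes most like TGFB3 over the 10 embryos of Day 10, among 8763 named genes with a mean of at least 5 CPM, were MOB3C (Pearson r 0.990 of log2 CPM), FBXO34 (0.989), CD47 (0.987), CXCL12 (0.985) and GABARAPL2 (0.984). CD47 encodes a surface protein that restrains phagocytosis, CXCL12 a chemokine and GABARAPL2 a protein of autophagy. Their ranges were 18.04 to 66.3 CPM for MOB3C, 31.1 to 85.9 CPM for CD47 and 8.52 to 196 CPM for CXCL12, so that of CXCL12 was the widest. Over all 30 embryos, where most of the variation is between days, the genes most like TGFB1 were BCAM (r 0.978), KIF1C (0.974) and B3GLCT (0.972). Those most like TGFB2 were SRPX (0.829), TPM1 (0.817) and SLC45A3 (0.815), and those most like TGFB3 were ETS2 (0.916), GRHL3 (0.911) and its overlapping neighbour IFT43 (0.906). These correlations describe embryos that share day, library and scaling, and have no test.

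Between sexes, none of the members was a DEG on any day at an FDR under 0.05 in the edgeR quasi-likelihood test. On Day 8, 0 of 7 were called beside 0.658% of the 11405 genes of that table, on Day 10 0 of 7 beside 0.223% of 11675, and on Day 12 0 of 9 beside 0.123% of 12220. At an unadjusted p under 0.05 there were 3 on Day 8 and 0 on Days 10 and 12, and the robust GLM and DESeq2 also called 0. The 3 were TGFB1, TGFB3 and TGFBR3, all with lower means in female embryos.

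TGFB1 on Day 8 was 2.93 ± 0.385 CPM in females and 5.24 ± 2.29 CPM in males (n = 5 each), a log2 fold change of -0.84 (adjusted p = 0.532 in edgeR). The female embryos had 3.33, 2.70, 3.12, 2.38 and 3.12 CPM, and the male embryos 3.95, 2.88, 6.73, 4.18 and 8.47 CPM, so the sexes overlapped through 1 male. TGFB3 on Day 8 was 1.07 ± 0.145 CPM in females and 1.94 ± 0.855 CPM in males (log2FC -0.86, adjusted p = 0.662). TGFBR3 was 1.02 ± 0.422 and 1.98 ± 0.636 CPM (log2FC -0.92, adjusted p = 0.658).

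On Day 10, TGFB3 was 55.8 ± 99.9 CPM in females and 63.3 ± 95.7 CPM in males, with a log2 fold change of -0.21 and a 95% interval of -3.05 to 2.64, so this day could not show a difference between sexes of several fold. SMAD2 was far better resolved, at -0.11 with an interval of -0.293 to 0.0826. On Day 12 the lowest adjusted p was 0.252, for SMAD4, with 51.5 ± 11.9 CPM in females and 65.0 ± 5.64 CPM in males and a log2 fold change of -0.31 (interval -0.652 to 0.0364). A difference between sexes in the change between days passed for 0 of the 10 genes at an FDR under 0.05 in edgeR, with the lowest adjusted p at 1, 0.243 and 0.269 for the 3 pairs of days. At an unadjusted p under 0.05 there was 1, SMAD4 from Day 10 to Day 12 (0.037).

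Other genes of the pathway were read in the same fits, from 5 lists with 46 genes read from the table. From Day 8 to Day 10, 6 of the 46 were DEG with higher levels and 3 with lower levels, beside 9.88% and 4.20% of all genes. From Day 10 to Day 12 they numbered 18 and 4, beside 14.9% and 8.39%, and from Day 8 to Day 12 24 and 3, beside 22.0% and 10.4%. The median log2 fold change of the 46 was 0.30, 0.80 and 1.12, beside 0.0286, 0.0431 and 0.0864 for all genes. No list gene was a DEG between sexes on any day in edgeR, with 37, 40 and 43 genes tested.

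**Figure D5:**
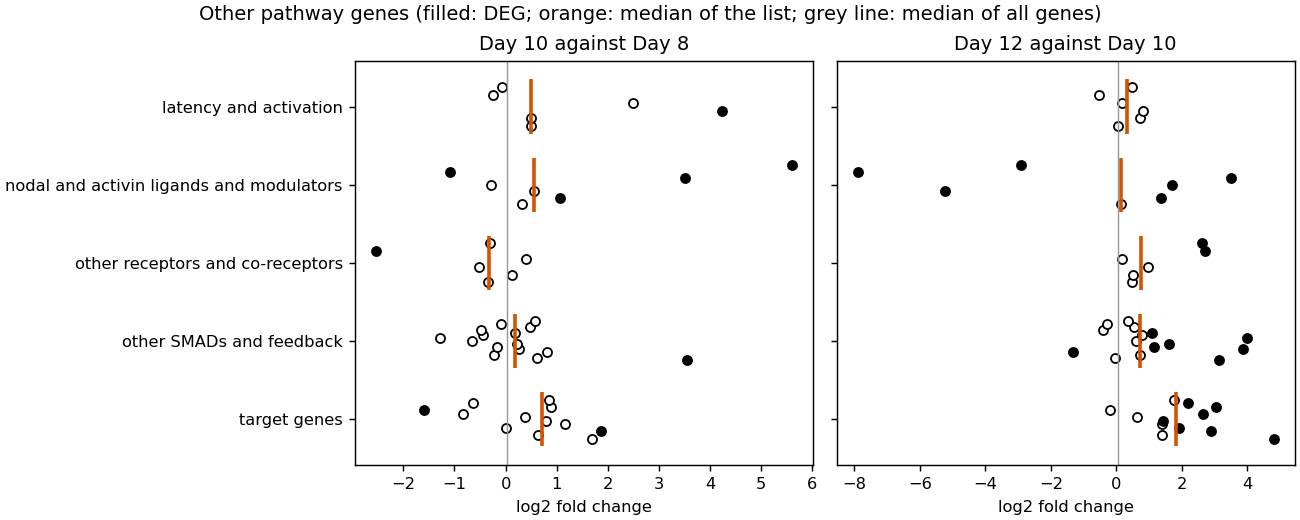
Log2 fold change of each list gene from Day 8 to Day 10 and from Day 10 to Day 12, with filled points for DEG, an orange bar at the median of the list and a grey line at the median of all genes. Points of genes at the floor on a day (NODAL, INHBB, GDF3 and ACTA2) are fitted values that depend on the prior count. The list of target genes had its median at 0.72 and then at 1.83.

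The first list holds genes that keep TGF beta latent or release it. LTBP2, LTBP4, ITGAV, ITGB6, ITGB8 and FURIN were in the table, and LTBP1, LTBP3, LRRC32, NRROS and THBS1 were not. ITGB6, which pairs with ITGAV to form an integrin that frees latent TGF beta, was the only DEG of the list from Day 8 to Day 10 with all embryos. ITGB8, its relative, had a log2FC of 2.49 (adjusted p = 0.0205) and passed without d08_m_103 (5.30, adjusted p = 0.000111). ITGB8 was at or under the floor in 9 of 10 embryos of Day 8 and 4 of 10 of Day 10, so both values rest on counts near the floor. ITGB6 had 1 embryo above 0 on Day 8, at 0.110 CPM, and 0 to 2.02 CPM on Day 10, with the highest values of 2.02 and 1.03 CPM again in d10_m_453 and d10_f_454. Without these 2 embryos the call was lost (log2FC 2.44, adjusted p = 0.00556), and ITGB6 then was a DEG from Day 10 to Day 12 (2.59, adjusted p = 7.23e-05), when it had 0.269 to 1.24 CPM. FURIN, a protease that cleaves the propeptide, had 479, 676 and 693 CPM on the 3 days and was no DEG.

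Among the 7 genes of nodal and activin signalling, 3 rose and 1 fell from Day 8 to Day 10, beside 9.88% and 4.20% of all genes, and 3 rose and 3 fell from Day 10 to Day 12, beside 14.9% and 8.39%. TDGF1, the co-receptor of NODAL also known as Cripto, went from 14.0 ± 3.49 to 685 ± 310 CPM (log2FC 5.61, SE 0.267, adjusted p = 1.1e-16) and then to 90.4 ± 26.04 CPM. The lowest embryo of Day 10 had 261 CPM against 19.8 CPM in the highest of Day 8, so the days did not overlap. NODAL fell from 2.84 ± 0.901 to 1.33 ± 0.284 CPM (log2FC -1.09, SE 0.201, adjusted p = 8.56e-05) and had 0 counts in all 10 embryos of Day 12, at least 8.12-fold lower than on Day 10 with 3 counts per library as the floor. The first of these calls was lost without d08_m_103, at -0.997. GDF3, a related ligand, was at or under the floor in all embryos of Day 12 and at least 6.54-fold lower than on Day 10. Disc markers were lower on Day 12 too. Their sum, mostly LIN28A, had a median of 128 CPM on Day 10 and 43.8 CPM on Day 12, the mean of POU5F1 went from 14.4 to 1.72 CPM, and NANOG and SOX2, at 2.24 and 0.455 CPM on Day 10, were at or under the floor in all 10 embryos of Day 12. Their part in the fall of NODAL, GDF3 and TDGF1 was not tested.

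The activin subunits INHBB and INHBA were higher on Day 12 than on Day 10. INHBB was at or under the floor in all 10 embryos of Day 8 and was at least 3.33-fold higher on Day 10 (0.466 CPM) and at least 37.7-fold higher on Day 12 (5.27 ± 4.41 CPM). INHBA had 5.51 ± 0.874 CPM on Day 8 and was no DEG from Day 8 to Day 10 (log2FC -0.28, adjusted p = 0.0495). It rose from 4.53 ± 0.733 to 14.8 ± 3.05 CPM from Day 10 to Day 12 (log2FC 1.70, adjusted p = 3.22e-13). FSTL3, which binds and blocks activin, rose in both intervals, from 3.43 to 7.19 and to 18.4 CPM, and its first call was lost without d10_f_454 (0.99). FST, another activin-binding protein, had 51.8, 65.0 and 71.8 CPM and was no DEG.

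Of 6 other receptors and co-receptors, BAMBI and ENG moved, which makes 1 DEG lower from Day 8 to Day 10 (4.20% of all genes) and 2 higher from Day 10 to Day 12 (14.9%). BAMBI, a decoy receptor without a kinase domain, fell from 18.9 ± 4.86 to 3.26 ± 0.647 CPM (log2FC -2.53, SE 0.343, adjusted p = 3.09e-07) and rose again to 21.3 ± 17.7 CPM (2.71, SE 0.344, adjusted p = 5.37e-08). All 10 embryos of Day 10 lay below the lowest of Day 8, at 4.79 CPM or less against 12.2 CPM or more. ENG, an accessory receptor known from endothelium, rose from 1.47 ± 0.420 to 9.07 ± 7.31 CPM from Day 10 to Day 12 (2.60, adjusted p = 1.71e-08). ACVR1, ACVR1B, ACVR2A and ACVR2B, which serve activins, NODAL and BMPs, were no DEG in either interval, though ACVR2A passed from Day 10 to Day 12 without d10_f_317, d10_f_433, d10_m_318, d12_f_245 or d12_f_271 (1.002 to 1.08).

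Of 15 other SMADs and feedback genes, 1 was a DEG with a higher level from Day 8 to Day 10, beside 9.88% of all genes, and 6 with higher and 1 with lower levels from Day 10 to Day 12, beside 14.9% and 8.39%. PMEPA1, a target that dampens the signal by holding SMAD2 and SMAD3, rose in both intervals, from 0.647 ± 0.184 to 7.70 ± 4.68 (3.55, SE 0.331, adjusted p = 2.79e-10) and to 68.2 ± 34.2 CPM (3.15, adjusted p = 7.72e-11). Its groups did not overlap, with highest and lowest embryos of 0.932 and 2.60 CPM between Days 8 and 10 and of 16.8 and 24.7 CPM between Days 10 and 12. The transducers of BMP signalling rose together from Day 10 to Day 12: SMAD1 from 6.19 ± 1.33 to 90.04 ± 27.99 CPM (3.86, adjusted p = 7.56e-17), SMAD9 from 0.313 ± 0.0935 to 5.02 ± 3.53 CPM (3.98, SE 0.370, adjusted p = 8.82e-11) and SMAD5 from 13.7 ± 2.43 to 30.1 ± 8.68 CPM (1.14, adjusted p = 5.18e-08). SMAD6, an inhibitor of BMP signalling, rose from 9.23 to 28.4 CPM. SMURF2, a ubiquitin ligase of the receptors, rose from 23.5 to 49.6 CPM, a call that was lost without d12_m_276 (0.92) or d12_m_286 (0.98). SKIL, a repressor of SMAD complexes, fell from 55.0 ± 8.58 to 21.9 ± 9.38 CPM (-1.32, SE 0.184, adjusted p = 2.92e-07). SMAD7, the inhibitor of the TGF beta branch, had 13.8, 8.72 and 13.3 CPM and was no DEG.

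Of the 12 target genes read from the table, 1 rose and 1 fell from Day 8 to Day 10, beside 9.88% and 4.20% of all genes, and 7 rose and 0 fell from Day 10 to Day 12, beside 14.9% and 8.39%. The list had its median log2 fold change at 0.72 and 1.83, above that of all genes. CDKN1A, an inhibitor of the cell cycle, rose in both intervals, from 3.44 ± 2.60 to 12.4 ± 4.51 and to 92.7 ± 41.8 CPM (1.86, SE 0.324, adjusted p = 1.5e-05, then 2.90, adjusted p = 3.52e-09). SNAI1, a repressor of epithelial genes, fell from 7.45 ± 1.03 to 2.47 ± 0.524 CPM from Day 8 to Day 10 (-1.59, SE 0.191, adjusted p = 3.66e-08), and all 10 embryos of Day 10, at 3.18 CPM or less, lay below the lowest of Day 8, at 6.09 CPM. On Day 12 it had 2.22 ± 1.08 CPM. The other genes that rose from Day 10 to Day 12 encode matrix and cytoskeletal proteins and a protease with its inhibitor: FN1 (1.43, adjusted p = 0.000579), COL4A1 (1.91), TAGLN (3.05), ACTA2, MMP2 (2.65) and TIMP3 (2.19). ACTA2 had 0 to 0.145 CPM on Day 10, with 9 of 10 embryos at or under the floor, and 0.327 to 1.59 CPM on Day 12 (adjusted p = 1.21e-09). The call of FN1 was lost without d10_f_315, d10_f_336, d10_f_433, d10_m_318, d10_m_321, d10_m_435, d12_f_297, d12_f_299, d12_m_249 or d12_m_275, with adjusted p up to 0.00204. BHLHE40 passed from Day 10 to Day 12 without d10_f_454 and d10_m_453 (1.90, adjusted p = 0.000169) or without d10_f_454 alone (1.64, adjusted p = 0.000724), and CTGF without d10_m_435 (2.08, adjusted p = 5.76e-06). COL1A1, COL1A2, COL3A1, SNAI2, ZEB1, ZEB2 and CDKN2B, also on the list, were not in the table. The lists of genes are textbook sets and none of the directions was tested against other genes.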

How the data were processed

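Total mRNA of single embryos had been sequenced as 100-bp single-end reads from stranded libraries. The authors ran Trim Galore, cut bases at the 5′ end, used Galaxy to map them to Sscrofa11.1 with its NCBI annotation, and dropped genes below a minimum CPM. How reads were aligned and counted, and that minimum, are not given in the sources used here. The deposited tables give raw counts of reads by NCBI gene identifier, not normalized, in a table of 13103 genes for all embryos and tables of 11405, 11675 and 12220 genes for Days 8, 10 and 12. Symbols and positions came from the RefSeq gene table of the same assembly. No sequence is printed, and levels were not compared between genes, since exon lengths were not used here.

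The 10 genes, the 5 lists and the marker lists were chosen with earlier results of these data known. One gene of the lists is not reported here and was left out of every count over them. All 10 genes are named, with list genes called in an interval that had the largest rise or fall of their list, others that say what a list holds, and genes with the highest Pearson r with a ligand. CPM values use TMM factors, and log2 CPM a prior count of 2. Tests were edgeR's quasi-likelihood F test with robust dispersion and Benjamini-Hochberg adjustment: between days in 1 fit of 3 groups of 10 embryos, between sexes, female over male, in the table of the day with 5 against 5. Whether a change between days differed by sex was tested in a fit with 6 groups. The SE is the size of the log2 fold change over the square root of F. Adjusted p-values of day and sex comparisons are from edgeR. Floors and intervals of counts cover counting error only.

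Alternatives were the robust GLM of the study, DESeq2, RLE factors, library size alone, minima of 10 counts in 5 embryos or of 1 CPM on average, a term for sex, 2 days only, an FDR of 0.05 without fold threshold, a prior count of 0.5, and each embryo left out. Fits without d10_f_454 and d10_m_453, and relations on Days 8 and 12, were added after the data were seen. Fits were tested on simulated data. Tools were R 4.3.3, edgeR 4.0.16, limma 3.58.1, DESeq2 1.42.0, with Python 3.11.15 (matplotlib 3.10.9, scipy 1.17.1, pandas 2.3.3, numpy 2.4.6).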

Additional observations from a re-analysis of the deposited data

Results flagged for a closer look

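Values of single embryos far from the rest of their group were looked for in 123 groups (63 of 10 embryos and 60 of 5), over the 10 genes and the list genes described one by one. The rule flags about 1 in 20 groups only where values are normally distributed. CPM near 0 is not, and each group of 5 is part of a group of 10. The 12 flags found are thus a description, with no test against chance. The spread of TGFB3 on Day 10 was known beforehand. Among the 10 genes, TGFB3 on Day 10 was flagged in both sexes, at 234 CPM in d10_f_454 against 4.32 to 28.4 CPM in the other female embryos and at 229 CPM in d10_m_453 against 6.27 to 62.9 CPM in the other male embryos. On Day 12, TGFB3 was 7.76 CPM in d12_m_275 against 0.656 to 3.90 CPM in the other 9 embryos. TGFB1 was 102 CPM in d12_f_289 against 35.2 to 53.6 CPM in the other female embryos of Day 12. TGFB2 was 0.960 CPM in d08_m_103 against 0.188 to 0.517 CPM in the rest of Day 8, and SMAD2 54.0 CPM in d08_m_111 against 39.6 to 43.5 CPM in the other male embryos of Day 8.

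Among the list genes, ITGB6 was 0.110 CPM in d08_m_103 with 0 CPM in the other 9 embryos of Day 8, and 2.02 CPM in d10_m_453 against 0 to 1.03 CPM in the rest of Day 10. BAMBI was 4.79 CPM in d10_m_435 against 2.27 to 3.55 CPM. SNAI1 was 4.92 CPM in d12_f_245, the smallest library, against 0.943 to 2.57 CPM in the rest of Day 12. ACTA2 was 0.0395 CPM in d08_m_111 with 0 CPM in the other 9 embryos of Day 8, and 0.145 CPM in d10_m_453 against 0 to 0.0514 CPM in the rest of Day 10. The Day 8 values of ACTA2 and ITGB6 were 1 and 4 counts, the first under the floor of 3 counts, and with 0 in the other 9 embryos any count would stand apart, so these 2 carry no weight. The embryo d08_m_103 was the highest for both TGFB2 and ITGB6 on Day 8, and d10_m_453 for both ITGB6 and ACTA2 on Day 10.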

How the results depend on the processing

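By the robust GLM, 2 of the 10 genes were DEG from Day 8 to Day 10 (TGFB1 as well, at 1.06) and 4 from Day 8 to Day 12 (TGFBR2 and SMAD2 as well). It also moved TGFB3 to 3.43 from Day 8 to Day 10 and to -2.57 from Day 10 to Day 12, both still DEG. A minimum mean of 1 CPM left 2 DEG from Day 10 to Day 12, since it removed TGFB2 and TGFBI from the test. With an FDR under 0.05 and no fold threshold, the counts were 4, 8 and 7 of 10 over Days 8 to 10, 10 to 12 and 8 to 12, and 26 and 35 of the 46 list genes in the first 2 intervals. The share of all genes called was not computed under the alternatives of this paragraph. Their counts therefore show nothing particular to the pathway. In the 6 Day 10 embryos whose number begins with 3, 0 relations with TGFB3 passed, with fewer embryos. DESeq2, RLE factors, 10 counts in 5 embryos and sex as a term left these counts within 1.5 times. TGFBI lost its call with 2 days only (1.48). With 1 embryo left out, 1 to 2 of the 10 genes were DEG from Day 8 to Day 10, 3 to 4 from Day 10 to Day 12 and 2 to 3 from Day 8 to Day 12.

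Signs that turned belong to values that did not pass their threshold. Some moved far, as did the sex difference of TGFB3 on Day 10 and the r of TGFB3 with TGFBR1 and SMAD2. By library size alone SMAD4 was -0.11 from Day 8 to Day 10 and SMAD2 0.0134 between sexes on Day 8 (0.0221 by the robust GLM). Without d10_f_454 and d10_m_453, TGFBR2 was -0.078 from Day 8 to Day 10. Between sexes SMAD3 on Day 10 was 0.0010 in the fit of 6 groups, and TGFBR3 on Day 12 was -0.16 by the robust GLM. The Pearson r of TGFB3 with TGFBR1 was -0.169 and with SMAD2 -0.462 by library size alone, and with TGFBR1 -0.592 in embryos whose number begins with 3. With each embryo left out in turn, sex differences ranged on Day 8 from -0.056 to 0.082 for SMAD2, from -0.033 to 0.060 for SMAD4 and from -0.144 to 0.016 for TGFBR1. On Day 10 they ranged from -0.19 to 0.36 for TGFB1, from -2.50 to 1.34 for TGFB3, from -0.074 to 0.096 for TGFBR1, from -0.31 to 0.15 for TGFBR3, from -0.22 to 0.14 for SMAD3 and from -0.0053 to 0.12 for SMAD4. On Day 12 they ranged from -0.20 to 0.30 for TGFB1, from -0.27 to 0.25 for TGFB2, from -0.64 to 0.23 for TGFB3, from -0.48 to 0.31 for TGFBR3 and from -0.056 to 0.58 for SMAD3. The r of TGFB3 ranged from -0.152 to 0.304 with SMAD2 and from -0.207 to 0.447 with TGFBR1. The cause was not tested. By library size alone or RLE factors, 0 of the called list genes turned sign. No analysis paired by litter was possible because the labels do not give the sow of each embryo. Depth limits TGFB2, TGFBI and TGFBR2, at no more than 56 counts in any embryo.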
